A study of Mus musculus with 3 samples.

Results

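The vacuolar proton pump and the lysosomal machinery that recruits and regulates the kinase mTOR were examined by RNA sequencing of microglia, macrophages that live in the brain. The genes were chosen by symbol, with earlier results of these data known. They were every gene whose name begins with Atp6, the numbered Lamtor genes and the Rag GTPase genes Rraga to Rragd. Also chosen were Tcirg1, Mtor, Rptor, Mlst8, Rheb, Tsc1, Tsc2, Flcn, Tfeb, Tfe3, Mitf, Mcoln1, Lamp1 and Lamp2. This gave 49 of the 24411 genes tabulated. The libraries formed 1 group of 3 replicates, from C57BL/6J mice labelled cKO and treated with a Pu.1 inhibitor, whose name, dose and route are not given in the labels. In the series design, cKO stands for Mir137loxP/loxP mice carrying Tmem119-CreERT2, a recombinase that tamoxifen switches on, made only where the microglial gene Tmem119 is active. The labels gave an age of 6 to 8 weeks and brain as the tissue, whereas the design placed 7 days of tamoxifen at 7 to 8 weeks. The Cre control genotype (Mir137+/+ with Tmem119-CreERT2) and cKO microglia without the inhibitor were not analysed here, so what follows are levels with deletion and inhibitor together, and neither one's effect could be estimated. The design named 4 mice without tying them to replicates, so errors measure the spread between these libraries, which may be technical.

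The vacuolar ATPase is a rotary pump that acidifies endosomes, lysosomes and phagosomes. Its cytosolic V1 sector hydrolyses ATP and turns a ring of proteolipid subunits in the membrane-embedded V0 sector, which carries protons across. The same pump binds Ragulator, a scaffold on the lysosomal surface that holds the Rag GTPases, and these recruit mTORC1, the growth-controlling kinase complex of mTOR, when amino acids are plentiful. Active mTORC1 keeps the transcription factors TFEB, TFE3 and MITF out of the nucleus; when it is off, they raise lysosomal genes through E-box motifs. In microglia these organelles digest what phagocytosis brings in.

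Mir137, the deleted gene, was listed at 0 FPKM in every library, which without a control library checks nothing, and Spi1, which encodes Pu.1, was at 187, 191 and 182 FPKM in replicates 1, 2 and 3. Total estimated counts were 17180404, 15710750 and 16356125 in replicates 1, 2 and 3. All 13 microglial marker genes were detected and took 3.42 ± 0.05% of counts (SD, n = 3). Markers of other cells were present too: choroid plexus genes took 0.851 ± 0.0534% and neutrophil genes 0.333 ± 0.0137% of counts, all 8 and all 10 of them detected. In summed FPKM the neutrophil list, led by S100a8 at 8800 ± 567, reached 14663 ± 851 and the microglial list 15880 ± 361 (SD, n = 3). In contrast, 3 of 10 neuronal markers were detected at 0.00436 ± 0.000283% and Nefl was at 0. All markers of monocytes (7), border macrophages (8), endothelium (8), astrocytes (7) and oligodendrocytes (8) were detected, as were 3 of 6 erythroid and 3 of 8 lymphocyte markers. The part of these cells in the levels below was not tested, and in bulk RNA fewer cells of a type and less RNA per cell cannot be told apart.

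The letters that matter most for reading the pump are those of Atp6v0c, which encodes the c subunit of the proteolipid ring, and of Atp6v0c-ps2, an intronless copy that the annotation calls a processed pseudogene. Atp6v0c lies on GRCm38 chromosome 17, 24163866 to 24169702, minus strand, and Atp6v0c-ps2 on chromosome 6, 37806086 to 37806550, plus strand. The coding sequence of the gene and the annotated pseudogene are shown 5′ to 3′ from the GENCODE transcripts, the first 300 bases of each, with the base that differs in capitals.
Atp6v0c: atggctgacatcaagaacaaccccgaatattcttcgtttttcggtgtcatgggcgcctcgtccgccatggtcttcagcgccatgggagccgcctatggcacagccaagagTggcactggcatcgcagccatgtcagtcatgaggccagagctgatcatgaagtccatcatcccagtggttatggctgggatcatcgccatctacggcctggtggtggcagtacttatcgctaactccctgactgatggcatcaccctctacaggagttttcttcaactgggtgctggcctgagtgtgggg
Atp6v0c-ps2: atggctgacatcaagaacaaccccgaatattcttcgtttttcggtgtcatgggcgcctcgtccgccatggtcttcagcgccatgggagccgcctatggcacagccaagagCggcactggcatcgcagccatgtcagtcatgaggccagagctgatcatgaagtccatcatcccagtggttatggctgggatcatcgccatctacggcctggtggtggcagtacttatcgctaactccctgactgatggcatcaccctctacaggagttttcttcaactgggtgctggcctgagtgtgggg
Over all 465 aligned bases the pair differed at 1, the substitution T111C from gene to pseudogene counted from the start codon, and was 99.8% identical, with 354 bases in the longest identical run.

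Most counts were assigned to the pseudogene. Atp6v0c was given 728.39, 155.32 and 256.24 estimated counts in replicates 1, 2 and 3, and Atp6v0c-ps2 was given 6602.61, 6432.68 and 6050.76. The gene therefore held 9.94% of their sum in replicate 1 (95% Wilson interval 9.27 to 10.64%), 2.36% in replicate 2 (2.01 to 2.75%) and 4.06% in replicate 3 (3.60 to 4.57%); the intervals cover counting error only, not the division of reads between copies. Replicate 1 stood 4.69 times above replicate 2 in the count of the gene, while the summed counts, 7331, 6588 and 6307, spanned 1.16 times.

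In FPKM, fragments scaled by transcript length and library size, Atp6v0c was at 48.7, 11.4 and 18.0 and Atp6v0c-ps2 at 459, 490 and 442 in replicates 1, 2 and 3. Their sum was 490 ± 26.1 FPKM (SD, n = 3). Neither gene had whole-number counts, and the effective length behind the FPKM of the pseudogene, 837 nt, exceeded its 465 nt GENCODE transcript and was close to the 870 nt of the gene. The model counted for the copy was therefore longer than the coding region shown here, and a sum of both is given below beside the gene alone. Which locus the reads came from was not tested.

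**Figure D1:**
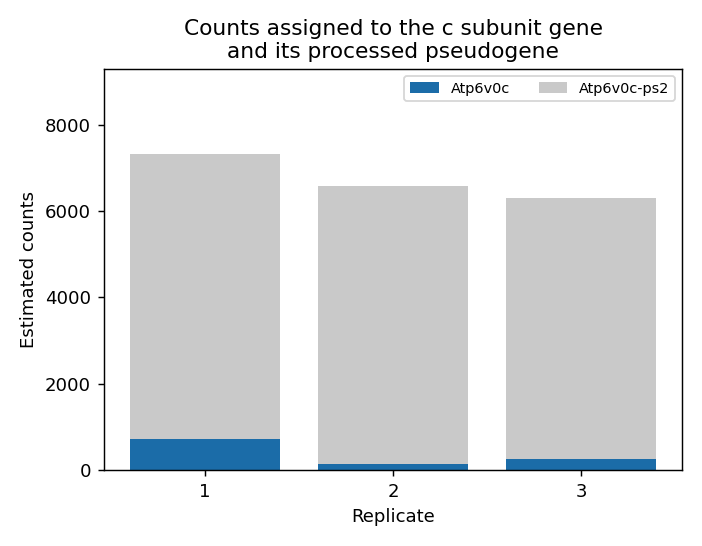
Stacked bars give the estimated counts assigned to Atp6v0c (blue) and to its processed pseudogene Atp6v0c-ps2 (grey) in replicates 1, 2 and 3. The blue part changes from 155.32 to 728.39 counts between libraries while the whole bar stays between 6307 and 7331.

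Of the 49 genes, 41 were detected, which here means 1 FPKM or more in every library, a share of 83.7% against 47.8% of all genes. Detected genes lay between 2.31 FPKM (Atp6v1g2) and 787 FPKM (Lamp1) on average, 23 of the 49 had a mean of at least 50 FPKM and 12 of at least 100. Together they took 0.754 ± 0.00995% of all counts (SD, n = 3). With undetected genes included, log2(FPKM + 1) over the 49 had a median of 5.53 ± 0.09, against 0.953 ± 0.0188 for all genes. Detected members alone stood at 5.79 ± 0.07, against 3.82 ± 0.00313 for the 11680 detected genes of the whole table. Of the other 8 genes, 4 had no count in any library and the rest were under 1 FPKM in at least 1 library.

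**Figure D2:**
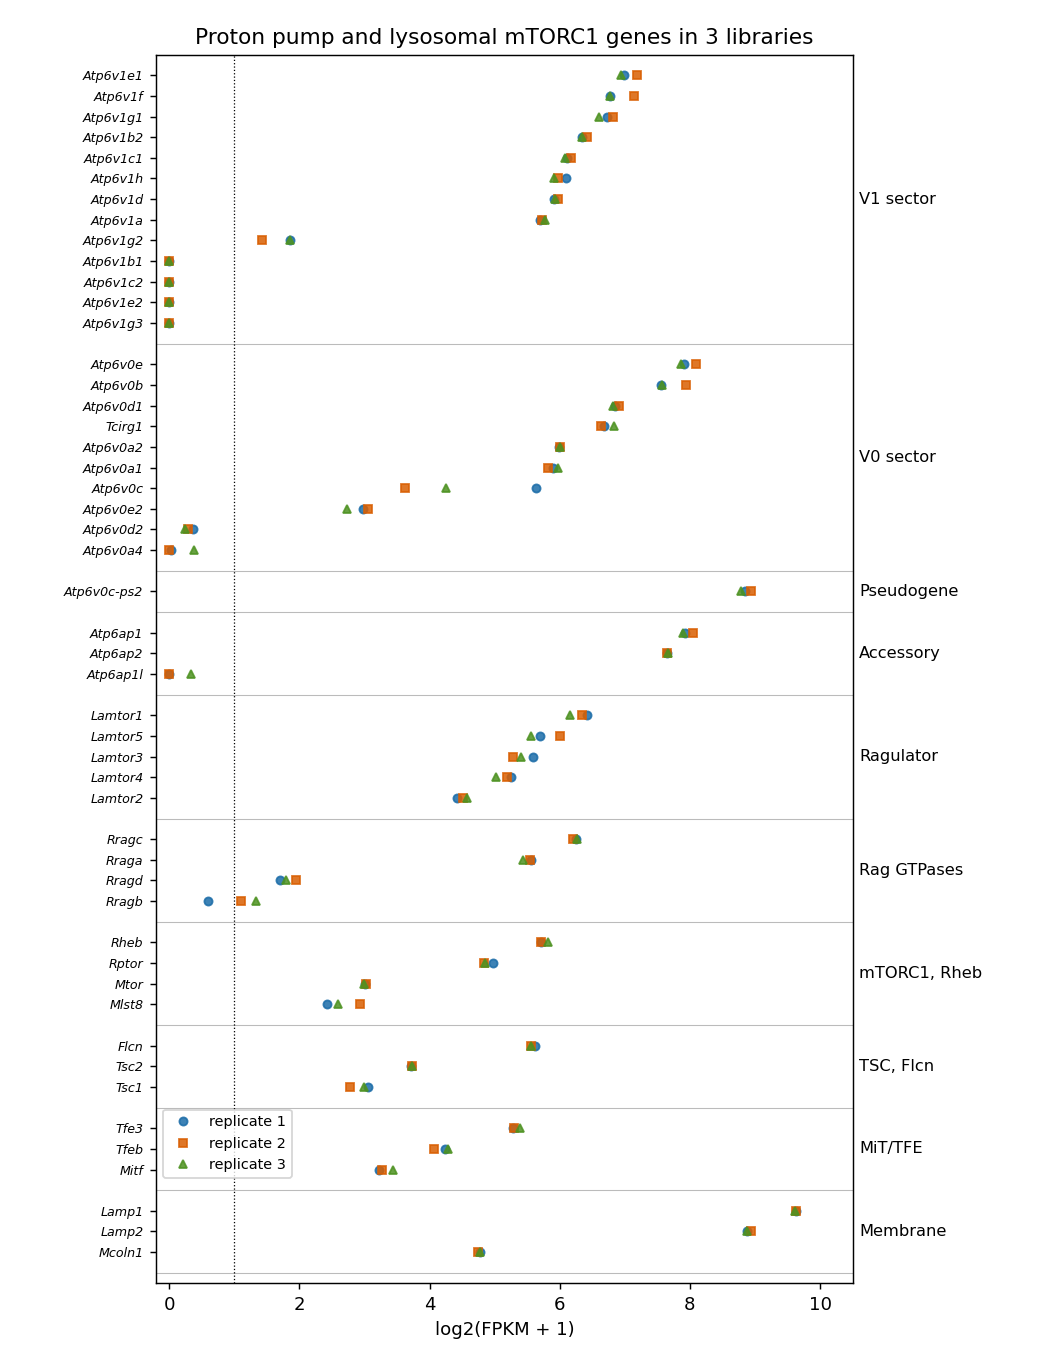
Each row is 1 gene and each point 1 library (blue circle, orange square and green triangle for replicates 1, 2 and 3), on the scale log2(FPKM + 1), with genes grouped by role and the dotted line at an FPKM of 1. For most genes the 3 points nearly coincide; Atp6v0c, Rragb and Atp6v1g2 are spread, and the points of Atp6v1b1, Atp6v1c2, Atp6v1e2 and Atp6v1g3 sit at 0.

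In the catalytic V1 sector the transcripts for each subunit came mainly from a single isoform gene. Atp6v1a, the subunit that hydrolyses ATP, was at 50.9, 51.9 and 53.9 FPKM in replicates 1, 2 and 3, and Atp6v1b2, the B subunit it alternates with, at 80.1, 84.1 and 80.4 FPKM. Their levels did not overlap, the difference of Atp6v1a from Atp6v1b2 being -0.63 ± 0.06 on the log2(FPKM + 1) scale (SD, n = 3), the scale of all log2 differences between genes below. Of the stalk subunits, Atp6v1e1 averaged 131 ± 11.7, Atp6v1f 119 ± 18.6, Atp6v1g1 105 ± 7.71 and Atp6v1d 60.3 ± 1.30 FPKM (SD, n = 3 each). Per read the order was another, with Atp6v1a at 191 ± 5.51 and Atp6v1b2 at 201 ± 5.62 CPM above Atp6v1e1 at 121 ± 10.7, Atp6v1g1 at 84.9 ± 6.27 and Atp6v1f at 42.1 ± 6.46 CPM (SD, n = 3 each).
The subunits that couple V1 to V0 were Atp6v1c1 at 68.6 ± 2.11 FPKM and Atp6v1h at 62.7 ± 4.27 FPKM (SD, n = 3).

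No read was assigned to Atp6v1b1, Atp6v1c2, Atp6v1e2 or Atp6v1g3. These isoforms are best known from acid-secreting epithelia such as the kidney, or from testis in the case of Atp6v1e2. A count of 0 allows up to 3 counts, or 0.175, 0.191 and 0.183 CPM, which divides counts by the library total, in replicates 1, 2 and 3. Atp6v1g2, the G isoform enriched in neurons, was detected at 2.64, 1.68 and 2.62 FPKM, on 55, 32 and 52 counts. That was 2.19 ± 0.63% of the summed FPKM of the G subunits, with Atp6v1g1 holding 97.8 ± 0.63% (SD, n = 3). Exons of Atp6v1g2 overlap those of Nfkbil1, at a mean of 6.50 FPKM, on the opposite strand over 144 bases. The part of Nfkbil1 reads in its counts was not tested.

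For the membrane sector, transcripts of several a subunit genes were present in every library. Levels of RNA do not show which a subunit a pump contains, or in which cells. The a subunit anchors the pump and decides in which compartment it works. Tcirg1, the a3 form known for acid secretion by osteoclasts (GRCm38 chromosome 19, 3896050 to 3907133), was at 102, 98.7 and 113 FPKM in replicates 1, 2 and 3. Atp6v0a2, known from endosomes and the Golgi, was at 62.4, 63.4 and 63.1 FPKM, and Atp6v0a1, the main form of neurons, at 58.6, 55.7 and 62.0 FPKM. Tcirg1 was the highest in every library, holding 46.1 ± 1.09% of the family's FPKM, and did not overlap with the others. Atp6v0a1 lay below Atp6v0a2 in 3 of 3 libraries, but the log2 difference was only -0.10 ± 0.08 (SD, n = 3), so this pair was separated by about its own spread. Per read instead of per length the order of Tcirg1 and Atp6v0a2 turned round: in TMM-normalised CPM the log2 difference of Tcirg1 from Atp6v0a2 was -0.34; Atp6v0a2 has an effective length of 5064 nt against 2413 nt for Tcirg1. Atp6v0a4, the kidney form, had 1, 0 and 15 counts.

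Among the other V0 subunits the small ones were high. Atp6v0e reached 240, 273 and 231 FPKM and Atp6v0b, the c″ subunit of the ring, 187, 244 and 190 FPKM in replicates 1, 2 and 3, both highest in replicate 2. The sum of Atp6v0c and its copy stood 1.25 ± 0.20 log2 units above Atp6v0b, whereas the difference of Atp6v0c alone from it was -3.19 ± 1.20 (SD, n = 3). Atp6v0d1, which joins the ring to the central shaft, was at 115 ± 4.02 FPKM. Its isoform Atp6v0d2, known from osteoclasts, had 11, 8 and 7 counts and 0.29, 0.23 and 0.19 FPKM, and made up 0.205 ± 0.0423% of the d subunits. Atp6v0e2, the neuronal e isoform, was detected at 6.62 ± 0.85 FPKM, 2.60 ± 0.20% of the e subunits (SD, n = 3).

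The accessory proteins Atp6ap1 and Atp6ap2, needed to assemble and target the pump, lay in the range of its highest subunits. Atp6ap2, also known as the prorenin receptor, was at 199, 199 and 201 FPKM, and Atp6ap1 at 242, 263 and 236 FPKM. Atp6ap2 was lower in 3 of 3 libraries, with a log2 difference of -0.31 ± 0.09 (SD, n = 3). The related Atp6ap1l had 0, 0 and 4 counts.

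On the lysosomal surface the Ragulator scaffold was detected in full. Lamtor1, the lipid-anchored subunit that wraps the others, was at 84.1, 79.9 and 70.6 FPKM, and Lamtor2 was lowest at 20.4, 21.9 and 22.9 FPKM. Lamtor5, Lamtor3 and Lamtor4 lay between, at 53.3 ± 8.59, 42.3 ± 4.72 and 34.7 ± 2.98 FPKM (SD, n = 3). Lamtor2 rested on 99 to 109 counts, since its effective length of 290 nt was the shortest of the set, and FPKM of such short transcripts depends strongly on that estimate. Exons of Lamtor1 overlap those of Lrrc51 on the other strand over 600 bases, and since nothing used here states the strand of the counting, their reads could not be told apart.

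Each Rag heterodimer pairs RagA or RagB with RagC or RagD, and on each side 1 gene predominated. Rragc was at 74.7, 72.8 and 75.7 FPKM and Rraga at 46.3, 45.5 and 42.3 FPKM in replicates 1, 2 and 3. Rraga was below Rragc in 3 of 3 libraries, with a log2 difference of -0.72 ± 0.09 (SD, n = 3). Rragd was at 2.27, 2.85 and 2.49 FPKM, 3.30 ± 0.42% of the RagC and RagD total. Rragb, at 0.52, 1.15 and 1.53 FPKM on 18, 36 and 50 counts, made up 2.35 ± 1.19% of the RagA and RagB total and missed the detection limit through replicate 1.

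The kinase complex and its switch spanned a wide range. Rheb, the GTPase that switches mTORC1 on, was at 51.3, 51.6 and 55.6 FPKM. Rptor, the subunit that selects substrates, was at 30.5, 27.5 and 28.0 FPKM, Mtor, the kinase, at 7.06, 7.10 and 6.94 FPKM, and Mlst8, its small partner, at 4.38, 6.6 and 5.06 FPKM. Mtor differed from Rptor by -1.88 ± 0.08 log2 units, with no overlap. Mlst8 differed from Mtor by -0.35 ± 0.25 log2 units, lower in 3 of 3 libraries, and 22.5% of its annotated exon bases overlap Bricd5, which was at 0 FPKM. Flcn, whose protein folliculin acts on RagC and RagD and promotes mTORC1 recruitment, was at 46.8 ± 1.14 FPKM. Tsc2, which turns Rheb off and so restrains mTORC1, was at 12.1, 12.2 and 12.3 FPKM, and Tsc1, its stabilising partner, at 7.28, 5.84 and 6.97 FPKM, so that Tsc2 was 0.79 ± 0.15 log2 units higher (SD, n = 3). Tsc2 counts were not whole, and its exons overlap those of Pkd1 on the opposite strand over 693 bases.

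All 3 MiT/TFE transcription factors measured by name were detected. Tfe3 was at 37.8, 38.4 and 40.9 FPKM, Tfeb at 17.86, 15.74 and 18.57 FPKM and Mitf at 8.31, 8.67 and 9.83 FPKM in replicates 1, 2 and 3, without overlap. Tfe3 made up 59.8 ± 1.20%, Tfeb 26.6 ± 1.44% and Mitf 13.7 ± 0.61% of their summed FPKM (SD, n = 3). Tfe3 was 1.12 ± 0.10 log2 units above Tfeb, and Tfeb 0.89 ± 0.12 above Mitf, but in TMM-normalised CPM the difference of Tfeb from Mitf was -0.21; the effective length of Mitf is 4600 nt against 2031 nt for Tfeb. The fourth family member, Tfec, outside the chosen symbols, was at 2.73 ± 0.55 FPKM.

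Counted singly, Lamp1 and Lamp2 had the highest mean FPKM of the 49 genes. The sum of Atp6v0c and its copy, 490 ± 26.1 FPKM, overlapped with Lamp2 at 474 ± 10.8 FPKM (SD, n = 3). It was higher in replicates 1 and 2 and lower in replicate 3, at 460 against 466 FPKM. Lamp1 was at 789, 793 and 780 FPKM and Lamp2 at 470, 487 and 466 FPKM; both coat the lysosomal membrane, and Lamp1 was 0.73 ± 0.02 log2 units higher. Mcoln1, the calcium channel TRPML1 through which lysosomes signal, was at 26.3, 26.0 and 26.4 FPKM, and Lamp1 exceeded it by 30.05 ± 0.50 times (SD, n = 3). Over the 26 pairs of subunits and partners set side by side, the gene named first was higher in all 3 libraries in 19 and lower in all 3 in the others. Pairs were chosen with earlier results of these data known, and 8 held an undetected gene, so the 19 is no result. Flipping the signs of the differences (exact permutation test, two-sided) gave p = 0.25 for each pair, and 0.25 after Benjamini-Hochberg adjustment over the 26, which is the smallest p that 3 libraries allow.

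**Figure D3:**
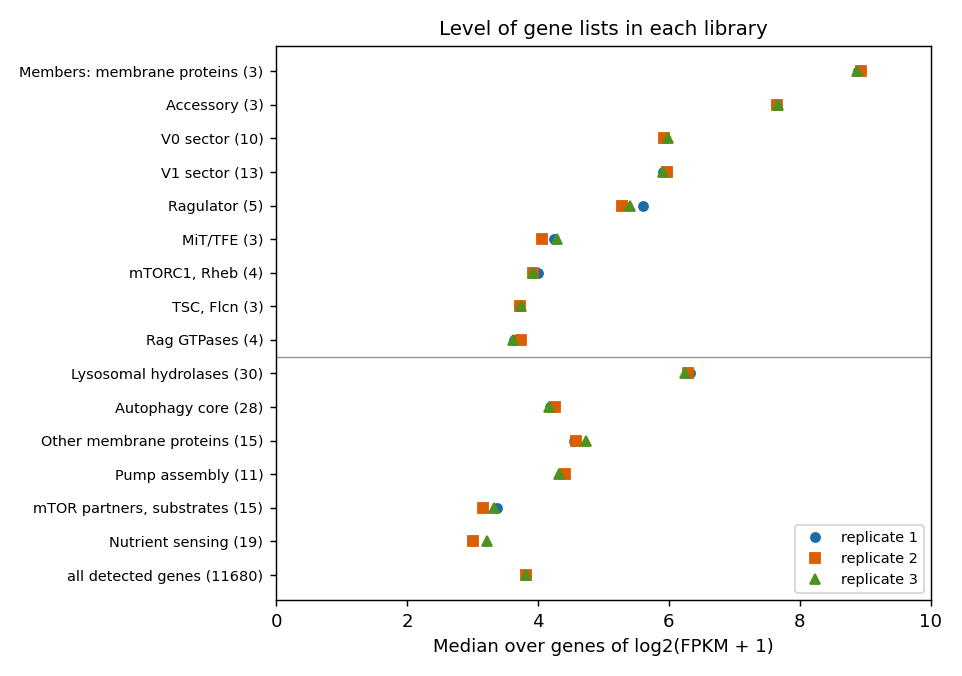
Each row is a gene list with its number of measured genes in parentheses, and each point is the median of log2(FPKM + 1) over its genes in 1 library; roles of the chosen genes are above the grey line and other lists below it. The V0 and V1 sectors, at 5.95 and 5.93, lie above the mTORC1 and Rheb genes at 3.95 and above all detected genes at 3.82. Role lists include undetected genes, and the V0 list counts Atp6v0c without its copy.

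By role, medians of log2(FPKM + 1) were taken over all measured genes, detected or not. The median was 5.93 ± 0.04 for the V1 and 5.95 ± 0.04 for the V0 sector, a gap within their spread, and 5.43 ± 0.16 for Ragulator. It was 4.198 ± 0.12 for MiT/TFE factors, 3.95 ± 0.04 for mTORC1 and Rheb, 3.72 ± 0.01 for Tsc1, Tsc2 and Flcn, and 3.67 ± 0.07 for the Rag GTPases (SD, n = 3 each). This order depends on the undetected genes, on the unit and on how Atp6v0c is counted. The V0 median took Atp6v0c alone, at a mean of 26.0 FPKM, below the 60.9 FPKM median of its list. With the sum of 490 FPKM in its place the V0 median would be higher, but that median was not computed. Over detected genes only, still per length, the medians were 6.12 ± 0.04 for V1 and 6.36 ± 0.04 for V0. The Rag GTPases then stood at 5.51 ± 0.07, near Ragulator, which stayed at 5.43. In TMM-normalised CPM on the log2 scale the medians were 6.11 for V1, 7.09 for V0, 5.03 for Ragulator and 5.39 for MiT/TFE factors. They were 5.97 for mTORC1 and Rheb, 6.19 for Tsc1, Tsc2 and Flcn, and 4.81 for the Rag GTPases. In both settings V0 stood above V1, and in CPM Ragulator stood below the kinase genes. The median of all 49 genes differed by -0.75 ± 0.05 log2 units from that of 30 lysosomal hydrolases at 6.28 ± 0.04, where Ctsd, a protease, was at 5935 ± 232 FPKM and Gla was lowest at 7.48 FPKM. It lay 1.33 ± 0.10 above 28 core autophagy genes at 4.203 ± 0.05, among which Gabarap was at 277 ± 29.3 and Sqstm1 at 169 ± 4.04 FPKM and Atg2b was lowest at 4.85 FPKM. Both differences had the same sign in 3 of 3 libraries, with an exact sign-flip permutation p of 0.25, the smallest possible. In TMM-normalised CPM the first was -1.66 and the second 0.25 log2 units. All 30 hydrolases and all 28 autophagy genes were detected, whereas 8 of the 49 members were not. Over detected members alone the median log2(FPKM + 1) was 5.79 ± 0.07 (SD, n = 3).

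Further genes of the pathway were described from lists outside the chosen symbols. All 11 genes of pump assembly were detected, with Rogdi at 84.7 ± 1.94 and Oxr1, one of the TLDc proteins that act on the pump, at 36.8 ± 0.44 FPKM, and Tbc1d24 lowest at 5.19 ± 0.32 FPKM. All 19 measured genes that sense nutrients upstream of the Rags were detected. Sesn1, a leucine-responsive inhibitor, stood out at 142, 140 and 144 FPKM in replicates 1, 2 and 3, ahead of Sec13 at 66.1 ± 5.75 FPKM, and the Castor2 gene, listed as Gatsl2, was lowest at 2.05 ± 0.30 FPKM. All 15 partners and substrates of mTOR were detected, from Eif4ebp2 at 31.8 ± 2.06 and Eif4ebp1 at 19.6 ± 2.86 FPKM, repressors of translation that mTORC1 inactivates, down to the Rheb relative Rhebl1 at 1.41 ± 0.43 FPKM. Of 15 further membrane genes and relatives 11 were detected, with Cd68 at 639 ± 12.4 and Cd63 at 443 ± 20.9 FPKM, while Lamp3 had no count and Mcoln2, Mcoln3 and Lamp5 were under 1 FPKM.

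The spread between libraries was then set against counting error. The biological coefficient of variation, a relative spread beyond counting, was estimated by edgeR, which draws each gene's value toward genes of like abundance. The values thus partly follow abundance and are not each gene's own measured spread. Their median was 0.0606 over the 42 genes with enough counts, against 0.0866 over all 13246 genes tested. Over the 8429 genes within the 10 to 90 percent range of the members' CPM the median was 0.0699. Lamp1 was lowest at 0.0482, and Rragb and Atp6v0c were highest at 0.257 and 0.239. A chi-square test of homogeneity with Benjamini-Hochberg adjustment over all 13246 genes found that the counts of 20 of the 42 differed between libraries. That share, 47.6%, was near the 41.4% of all genes called, so it is no result about these genes; the other 7 of the 49 were not tested for lack of counts.

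**Figure D4:**
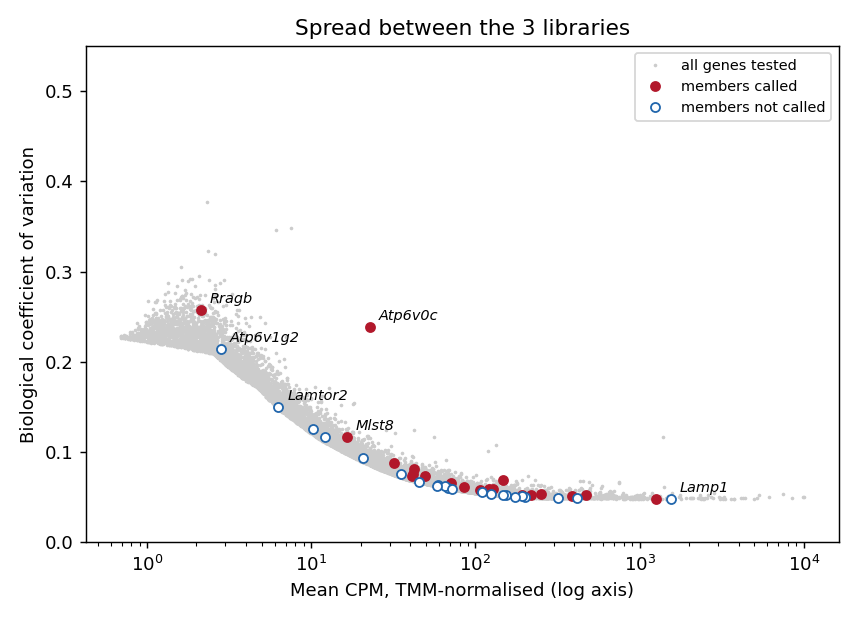
Each grey dot is 1 of the genes tested, placed by its mean CPM (log axis) and its biological coefficient of variation; filled red circles are chosen genes whose counts differed between libraries and open blue circles those not called. Atp6v0c, at 0.239, lies far above genes of like abundance, while most of the others follow the grey band.

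Most of the calls were small in size. Of the 20 genes called, 17 had a highest CPM less than 1.5 times the lowest. The exceptions were Atp6v0c at 4.28 times, Rragb at 2.91 times and Mlst8 at 1.51 times. Called or not, the median of this ratio was 1.12 over the 42 genes and 1.17 over all genes tested. Atp6v0b was at 134, 175 and 136 CPM in replicates 1, 2 and 3 (adjusted p = 2.94e-23 by the chi-square test over all genes), Atp6v1f at 38.4, 49.6 and 38.4 CPM (adjusted p = 2.2e-06) and Lamtor5 at 30.6, 37.8 and 27.8 CPM (adjusted p = 2.44e-05). In each of these, replicate 2 stood above the others. Replicate 2 was the highest library for 10 of the 20 genes called, replicate 1 for 6 and replicate 3 for 4. The same split over all genes called was not counted, so it is no result about these genes. Tcirg1 was highest in replicate 3, at 245, 238 and 272 CPM (adjusted p = 4.99e-08). Summing Atp6v0c with its copy brought its coefficient down to 0.0517, and the sum still differed between libraries (adjusted p = 5.12e-08), with 427, 420 and 385 CPM.

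Short transcripts in general stood higher in replicate 2. Over all genes with an effective length under 500 nt, replicate 2 exceeded the mean of the other libraries by a median of 0.18 log2 CPM, and 78.5% of the 423 genes were higher there; over those above 2000 nt the median was -0.03 and 41.7% of 8106 were higher. Of the 10 chosen genes between 500 and 1000 nt, 8 were higher in replicate 2, beside 72.6% of all genes of that length, and 9 of the 10 were called, beside 49.0%. Of the 11 between 1000 and 2000 nt, 7 were higher, beside 63.3%, and 2 were called, beside 39.5%. Of the 18 above 2000 nt, 7 were higher and 7 were called, beside 41.6% of all genes called. The part of this length trend in single members was not tested; without replicate 2 the number called was 7 of 42, beside 18.6% of all genes.

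**Figure D5:**
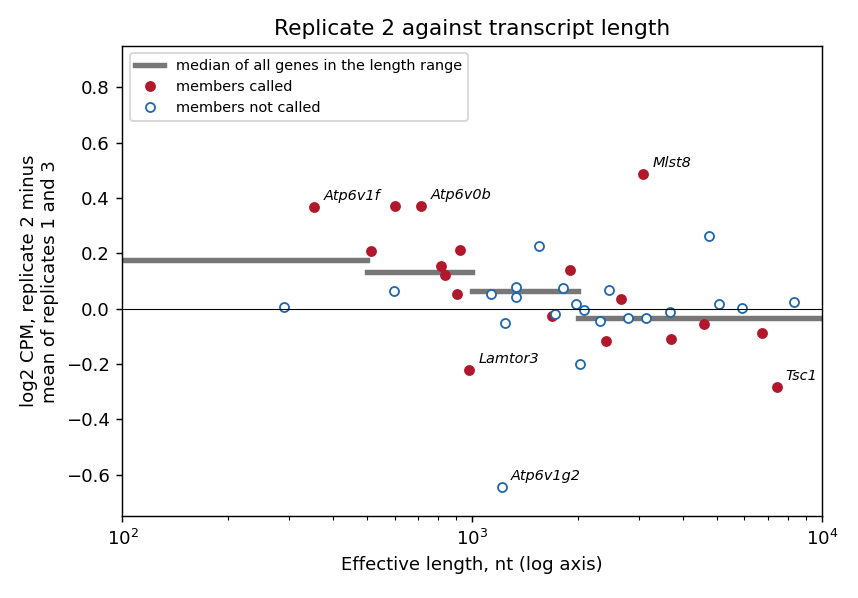
Each circle is 1 of the chosen genes with at least 20 counts in every library, placed by effective length in nt (log axis) and by its log2 CPM in replicate 2 minus the mean of replicates 1 and 3; red circles were called, open blue circles were not, and Atp6v0c is left out. Grey bars give the median of all genes in 4 length ranges, 0.18, 0.13, 0.06 and -0.03 from short to long, and Atp6v0b and Atp6v1f lie above them.

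Promoters were available from RefSeq on GRCm38 for 40 of the 49 genes, as 300 bases from 250 before to 50 after the start of transcription. The E-box core CACGTG, which is its own reverse complement and which MiT/TFE factors bind, was found in 11 of the 40 (27.5%), against 8.09% of all 27025 genes with a promoter and 11.9% of the detected ones. The longer form TCACGTGA, which contains the core and is also palindromic, was in 4 of the 40, those of Atp6v0d1, Atp6v0e, Atp6v1a and Mcoln1, against 1.12% of all and 2.24% of detected genes, and the full CLEAR palindrome, which adds a base at each end, was in none, against 0.37%. Genes with CACGTG had a median of 74.4 FPKM and the rest of the 40 a median of 21.7 FPKM. Of the 40 genes 34 were detected, and of the 11 with CACGTG 10 were. Most undetected genes thus fell in the rest and lower its median, and medians over detected genes alone were not computed. Of Pu.1 and ETS cores searched on both strands, GAGGAAGT was in none of the 40 and in 3.69% of all genes, and GGAAGTG was in 8 of the 40 and in 12.5% of all and 17.5% of detected genes. Among members that were detected the share was 20.6%. These are matches of letters and were not tested as binding sites.

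Promoters of pump and lysosomal membrane genes are shown that hold the longer motif or, for Lamp1, the most copies of the core; the motif is in capitals, TCACGTGA in the first 3 and CACGTG in Lamp1. They lie at chr16:44139210-44139509 (minus strand), chr17:26676146-26676445 (plus), chr8:3500269-3500568 (plus) and chr8:13158911-13159210 (plus) on GRCm38. The windows follow RefSeq starts. Those of Atp6v1a and Atp6v0e lie inside the GENCODE gene bounds, which are 44085402 to 44139705 and 26663231 to 26699647. For these genes the outermost GENCODE start is therefore another one.
Atp6v1a: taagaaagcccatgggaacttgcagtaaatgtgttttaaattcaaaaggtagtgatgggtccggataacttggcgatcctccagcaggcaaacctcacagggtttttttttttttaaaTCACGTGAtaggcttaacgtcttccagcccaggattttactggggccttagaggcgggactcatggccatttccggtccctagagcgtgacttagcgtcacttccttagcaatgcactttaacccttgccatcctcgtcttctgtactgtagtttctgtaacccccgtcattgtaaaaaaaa
Atp6v0e: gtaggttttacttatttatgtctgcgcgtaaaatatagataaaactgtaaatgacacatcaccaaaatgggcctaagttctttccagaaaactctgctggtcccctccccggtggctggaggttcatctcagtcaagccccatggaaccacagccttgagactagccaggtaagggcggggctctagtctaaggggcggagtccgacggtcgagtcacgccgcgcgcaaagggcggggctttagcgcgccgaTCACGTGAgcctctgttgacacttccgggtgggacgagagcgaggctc
Mcoln1: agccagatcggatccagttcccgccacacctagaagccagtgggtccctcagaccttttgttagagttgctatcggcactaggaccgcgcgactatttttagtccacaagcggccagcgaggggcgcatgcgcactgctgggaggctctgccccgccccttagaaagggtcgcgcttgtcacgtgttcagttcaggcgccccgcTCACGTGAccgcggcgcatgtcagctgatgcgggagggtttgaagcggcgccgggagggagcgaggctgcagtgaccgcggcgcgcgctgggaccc
Lamp1: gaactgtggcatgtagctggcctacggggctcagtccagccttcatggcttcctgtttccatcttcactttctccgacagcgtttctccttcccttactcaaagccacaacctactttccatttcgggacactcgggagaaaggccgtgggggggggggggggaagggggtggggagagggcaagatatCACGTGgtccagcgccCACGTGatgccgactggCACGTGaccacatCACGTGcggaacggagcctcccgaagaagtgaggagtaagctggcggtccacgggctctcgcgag
The Lamp1 promoter held 4 copies of CACGTG and Mcoln1 held 2, of which 1 is the longer form. Their genes differed in level by 30.05 times in FPKM, so the number of copies and the level are given only side by side.

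Since Mir137 was the deleted gene, its seed match was also looked up, a search chosen after the values were seen. MITF is a reported target of miR-137 in human melanoma cells. The mature miR-137-3p from RefSeq, with its seed (bases 2 to 8) in capitals, and the Mitf sites within 30 bases each, with the match AGCAATA in capitals, read as follows.
miR-137-3p: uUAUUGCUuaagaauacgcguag
Mitf site 1: gtttgtaaacaataaAGCAATAagaataaa
Mitf site 2: cccgctgttgggtacAGCAATActttctgt
These sites start at bases 2842 and 3061 of a 3174 nt Mitf 3′ untranslated region, the longest annotated for the gene. AGCAATA on the transcript strand occurred in the 3′ untranslated regions of 3 of 48 members, Mitf and Rragd with 2 sites each and Atp6v1d with 1, a share of 6.25% beside 10.2% of 11052 detected genes. The median length of those regions was 806 nt in members and 1178 nt in the detected genes, and a longer region can hold more matches by its length alone.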

How the data were processed

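RNA sequencing of 3 libraries of 1 group was analysed. The authors deposited estimated counts per gene and FPKM per gene; the tools named are RSEM, DESeq2 and STAR 2.7.9a, with GRCm38 and mm10 as builds, per the submitters' processing notes. Settings, annotation and strandedness are not given in the sources used here. Deposited count columns carry no scaling between libraries, and 4.07% of values were not whole (tolerance 0.001). Columns of other samples numbered 0.

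From these, counts were rounded, filtered by edgeR 4.0.16 (R 4.3.3) and TMM-normalised; dispersions used an intercept alone. The chi-square test compares libraries, not conditions. In simulated counts for the 13246 genes holding only counting error, the test found 79.5, 92.5 and 100% of 1.5, 2 and 4 times changes in 1 library; with a simulated coefficient of 0.1 it called 47.3 to 47.8% of unchanged genes. Effective length was recovered from counts, FPKM and totals for libraries with at least 20 counts. Levels of different genes were compared in FPKM, with a pseudocount of 1 on the log2 scale. Coordinates and transcripts are GENCODE M21 on GRCm38, 1-based; 12 symbols turned into dates by a spreadsheet were left unnamed. Pathway and marker lists held 212 entries, of which 2 were matched under older names and 1 (Samtor) was not matched. The named genes are all members, and the 2 highest and the lowest gene of each pathway and comparison list, except for an item that is not reported here; Nefl, S100a8, Spi1, Tfec, Mcoln2, Mcoln3, Lamp5 and the genes with overlapping exons were named after their values were seen. Members, lists and pairs were chosen with earlier results of these data known. Planned protein comparisons were not run. Alternatives were other pseudocounts, units, filters, size factors (DESeq2 1.42.0) and leaving out each library; summing Atp6v0c with its copy, the length ranges, the seed search and the exon overlaps were added after seeing the data.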

Additional observations from a re-analysis of the deposited data

How the results depend on the processing

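The median level of the members, 5.53 log2(FPKM + 1), was 5.79 over detected members only, 6.02 in TMM-normalised CPM and 6.40 in TPM, and 5.49 to 5.58 when 1 library was left out. The number of members called as differing between libraries, 20, ran from 7 to 17 with 1 library left out: 17 without replicate 1, 7 without replicate 2 (all among the 20) and 14 without replicate 3, beside 28.2, 18.6 and 23.5% of all genes called. It was 20 with DESeq2 size factors, with library totals or with a Poisson likelihood ratio, and 22 of 45 without the count filter, beside 37.8% of all genes. Restricted to pairs with both genes detected, 11 of 18 pairs had the first gene higher in every library, against 19 of 26. In CPM, Tcirg1 over Atp6v0a2 was -0.34 and Tfeb over Mitf -0.21 log2 units, since CPM is not divided by length, and with its copy added Atp6v0c over Atp6v0b was 1.25. The number detected ran from 38 to 42 over thresholds of 0.5 and 5 FPKM, 10 counts and leaving out 1 library. Low counts limit Rragb, Atp6v1g2 and Lamtor2. No paired analysis was possible because the libraries form 1 group.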
